A study of Homo sapiens with 28 samples.

Results

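A mimic of miR-485-3p and a mimic of miR-100-3p were compared with each other in Kelly cells, an established neuroblastoma line with an amplified MYCN gene. The labels assign the libraries to the groups, 4 transfected with the miR-485-3p mimic (replicates 1, 2, 3 and 5) and 4 with the miR-100-3p mimic (replicates 1 to 4), and make up 8 of the 28 RNA-seq libraries of the series. The scrambled control of the same series (4 libraries, replicates 1, 2, 4 and 5) is the common baseline of both mimics. All 3 groups were reverse transfected with 25 nM of a commercial small RNA, with the same lipid reagent, and harvested 48 h later, so a control library carries a transfected RNA too. All cells come from 1 line, no library is from untransfected cells, and separate cultures behind the 4 libraries of a group are not stated in the labels. The p-values therefore measure only the spread between these libraries. The question put to the data is which mRNAs differ between the mimics, and above all how the genes of DNA replication and thymidylate synthase (TYMS) differ. The comparison was chosen with the movement of the replication genes and of TYMS in these data already known. Their counts and p-values below are therefore descriptive and are not an independent test.

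A microRNA guides the silencing complex to messenger RNAs through its seed, the bases near its 5′ end, which pair with complementary sites that lie mostly in 3′ untranslated regions (UTRs), and the paired transcripts are translated less and decay faster. DNA replication proceeds in steps: origins are licensed by the ORC, CDC6, CDT1 and MCM proteins, the helicase is switched on by CDC45 and GINS, polymerases copy the strands behind the PCNA clamp, and chromatin assembly factors rewrap the copy. Deoxynucleotides come from ribonucleotide reductase and from TYMS, which makes thymidylate with a folate cofactor and is the target of fluorouracil. Transcription of most of these genes rises at the G1/S transition through E2F factors.

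The mature sequences are shown because their seeds define the sites searched for in the results. Both are given from RefSeq (GRCh38.p14), 5′ to 3′, with the seed (bases 2 to 8) in capitals. The sequences of the synthetic mimics themselves are not stated in the labels.
miR-485-3p: gUCAUACAcggcucuccucucu
miR-100-3p: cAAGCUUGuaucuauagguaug
The first is encoded at chr14:101055464-101055485 on the plus strand and the second at chr11:122152240-122152261 on the minus strand. The seeds share no heptamer, and their target sites read TGTATGA for miR-485-3p and CAAGCTT for miR-100-3p.

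Sites in the 3′ UTRs of several of the genes that differed with the smallest p in each direction are shown next (GENCODE v29 transcripts, GRCh38, sense strand 5′ to 3′), with the 7 bases opposite the seed in capitals. The first 5 lines, sites for miR-485-3p, come from genes that were lower under that mimic.
RHOQ: gggccatacctgaggagagaaTGTATGAga
MYCBP: aaagacaatgaaaaatggtttTGTATGAct
ALDH18A1: agcagtgatgcttgaaattttTGTATGAat
NRAS, first site: gagcagatgccattttgtacaTGTATGAaa
NRAS, second site: agtactgacctaagatggaatTGTATGAac
SKP2: cttactaagtctattcagaatCAAGCTTaa
VAMP3: acttagaacctgctatattatCAAGCTTac
RPS6KA2: ttaaaatataaacttgtttcaCAAGCTTta
The last 3 lines are sites for miR-100-3p in genes that were higher under miR-485-3p, that is, lower under miR-100-3p. The seed matches lie at chr2:46581604-46581610 (RHOQ), chr1:38864626-38864632 (MYCBP), chr10:95606046-95606052 (ALDH18A1), chr1:114707283-114707289 and chr1:114704740-114704746 (NRAS), chr5:36182359-36182365 (SKP2), chr1:7779719-7779725 (VAMP3) and chr6:166411127-166411133 (RPS6KA2).

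Depth was 10.99 M to 16.67 M expected counts in the miR-485-3p libraries, 11.95 M to 21.12 M in the miR-100-3p libraries and 13.04 M to 15.22 M in the control. No pair of libraries within a group agreed within sampling noise. All 10 markers of sympathetic neuroblastoma that were listed, among them HAND2, DBH and MYCN, were detected in every library. Of 12 markers of endothelial, fibroblast, epithelial and blood cells, 9 are rows of the table, and their summed level was 9.44 to 12.24 CPM (counts scaled to a common effective library size, with TMM factors) under miR-485-3p, 11.43 to 13.5 CPM under miR-100-3p and 12.24 to 15.15 CPM in the control. PECAM1, CDH5, COL1A2 and DCN were at or near 0 in all 3 groups. COL1A1, VWF and KRT19 were detected in every library and made up most of the sum, with COL1A1 the highest. VWF had 0.7554 to 1.688 CPM under miR-485-3p, 2.607 to 3.925 CPM under miR-100-3p and 2.11 to 3.12 CPM in the control. By the test described below it was called lower under miR-485-3p than under miR-100-3p (log2 difference -1.531) and than in the control (-1.252). Some libraries held more of GC-rich transcripts than others. The GC slope, the change in a library's log2 level per unit of GC fraction, was 1.16, 3.06, -0.80 and -0.91 for miR-485-3p replicates 1, 2, 3 and 5 and 0.20, -1.23, -1.76 and 1.51 for miR-100-3p replicates 1 to 4. The mitochondrial genome supplied 5.39% to 8.45% of counts under miR-485-3p and 6.87% to 11.71% under miR-100-3p. With the GC slope as a covariate of the fit TYMS differed between the mimics by 0.65, against 0.64 without it, and 41 DNA replication genes were higher, against 33. The part of the mitochondrial share was not tested.

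The mimics differed at 4296 of 15047 genes tested. Under miR-485-3p 2237 genes (14.9%) were higher and 2059 (13.7%) lower than under miR-100-3p, with a median log2 difference over all genes tested of 0.03. A gene is called at an adjusted p under 0.05, by edgeR's quasi-likelihood test with Benjamini-Hochberg adjustment over all genes, and log2 differences are miR-485-3p minus miR-100-3p, ± SE. Differences of at least 2-fold were more often falls, 132 higher (0.877%) and 328 lower (2.18%). Against the shared scrambled control, miR-485-3p changed 1570 genes upward (10.4%) and 1601 downward (10.6%), and miR-100-3p changed 437 upward (2.9%) and 460 downward (3.06%). The miR-100-3p counts fell when most single libraries were left out. In all 551 genes were called without miR-100-3p replicate 3 and 686 without its replicate 2, against 897 with every library. Without control replicates 1, 2, 4 and 5 in turn the counts were 624, 574, 627 and 597. They were 900 and 874 without miR-100-3p replicates 1 and 4. Of the miR-485-3p rises, 889 were called without miR-485-3p replicate 3.

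Genes of DNA replication were higher under miR-485-3p than under miR-100-3p. Of 66 listed genes, all 66 passed the filter on low counts, 33 were called higher and 1 lower, against 14.9% and 13.7% of all genes, and their median log2 difference was 0.24. In 25 of them every miR-485-3p library lay above every miR-100-3p library and in 1, CHAF1A, below (9.93% and 10.9% of all genes). Against the control, 22 members rose and 3 fell under miR-485-3p, with a median of 0.15, while 0 rose and 9 fell under miR-100-3p, with a median of -0.10. That count of 0 was also 0 by DESeq2 and limma-voom, and 2 members were above the control in edgeR at an unadjusted p under 0.05. The background in those comparisons is the 10.4%, 10.6%, 2.9% and 3.06% given above. Both sets of values use the same 4 control libraries. In bulk RNA a larger share of cells in S phase and more of each mRNA per cell cannot be told apart. The direct count was 29 to 32 higher when any 1 of the 8 libraries was left out, and 15 when the fit held the 8 libraries alone. The 22 rises under miR-485-3p became 13 without its replicate 3. The 9 falls under miR-100-3p became 3 without its replicate 3, 5 without its replicate 4, 5 without control replicate 1 and 3 without control replicate 2 or control replicate 4. Without miR-485-3p replicate 3 or replicate 5 a second member was called lower in the direct comparison.

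**Figure D1:**
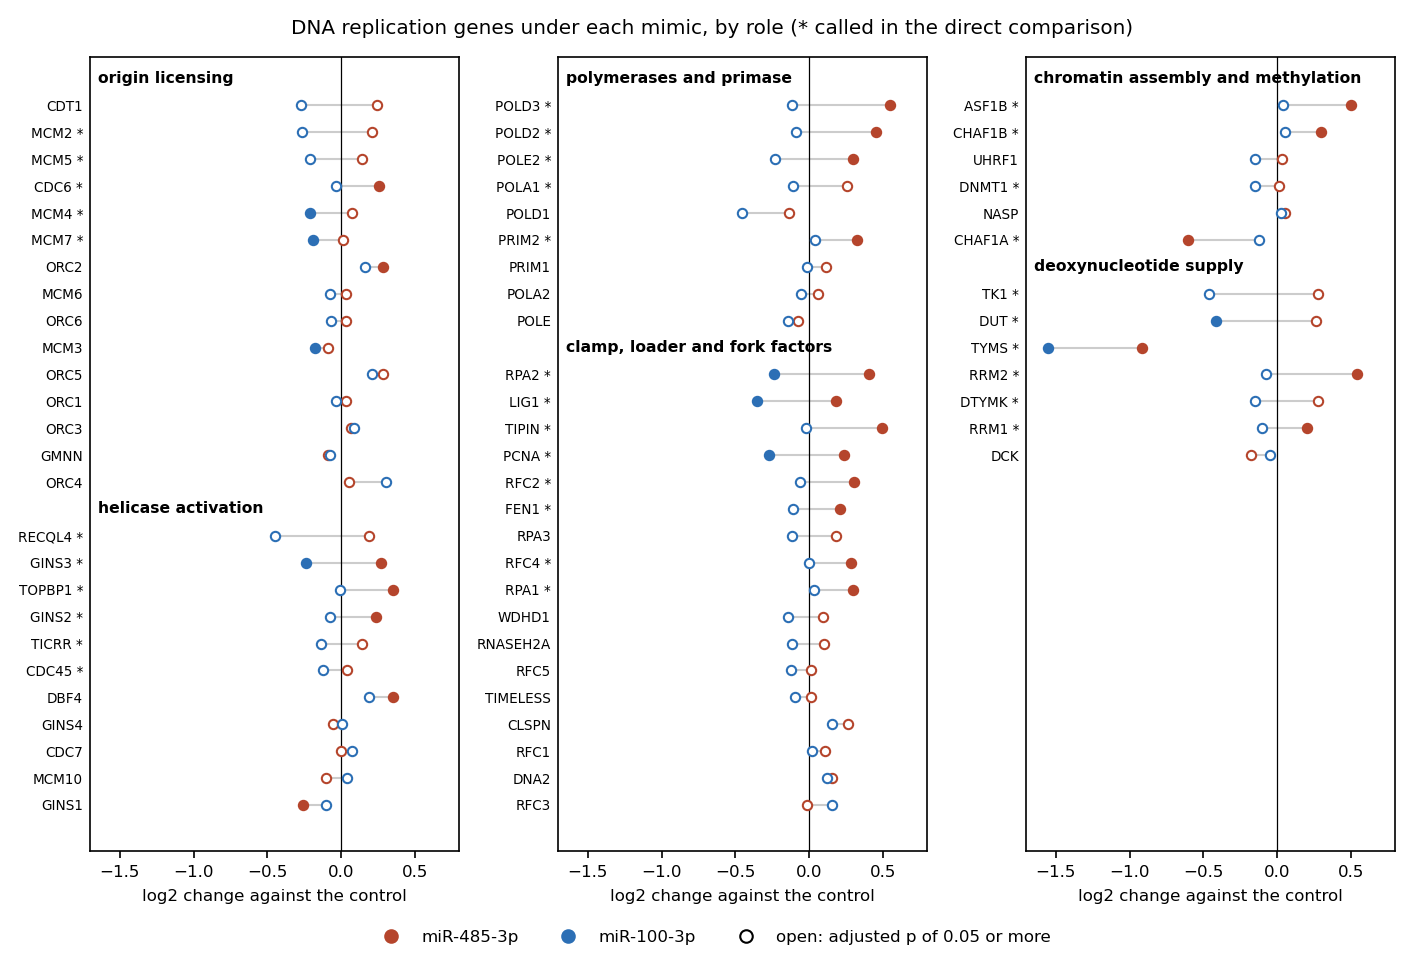
Log2 change of the DNA replication genes, all but 1 of the 66, against the scrambled control under miR-485-3p (red) and miR-100-3p (blue), grouped by role and sorted by the direct difference. Filled points have an adjusted p under 0.05, stars mark genes called in the direct comparison, and TYMS is the one gene far to the left under both mimics, at -0.92 and -1.55.

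The members were set against the control one mimic at a time, with the same control libraries in both comparisons. GINS3, PCNA, RPA2 and LIG1 were called in opposite directions against the control, and TYMS was the one member called lower under both. TYMS fell less under miR-485-3p and so is counted among the 33 members called higher in the direct comparison.

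Origin licensing showed the smallest shift, with 5 of 15 genes higher and a median log2 difference of 0.11. The calls were CDC6, the loader of the MCM helicase, at 0.29 ± 0.06, and the helicase subunits MCM2 (0.47 ± 0.09), MCM4 (0.29 ± 0.06), MCM5 (0.36 ± 0.09) and MCM7 (0.20 ± 0.06). MCM2 had 553, 621, 560.2 and 509.5 CPM in the miR-485-3p libraries, 449, 386, 342 and 439 CPM in the miR-100-3p libraries and 451.6 to 498.1 CPM in the control. Its groups did not overlap, and neither mimic alone differed from the control by the test (adjusted p = 0.0876 under miR-485-3p and 0.072 under miR-100-3p). The 6 ORC subunits were not called, from -0.25 ± 0.11 for ORC4 to 0.12 ± 0.07 for ORC2, and neither were CDT1 (0.52 ± 0.26), its inhibitor GMNN (-0.02 ± 0.07), MCM3 (0.09 ± 0.05) or MCM6 (0.11 ± 0.08). The MCM7 call was lost without miR-100-3p replicate 3 (adjusted p = 0.0528).

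Helicase activation had 6 of 11 genes higher. GINS3, a subunit of the GINS complex, had 48.4, 46.5, 53.2 and 44.8 CPM under miR-485-3p, 35.5, 34.5, 30.6 and 35.0 CPM under miR-100-3p and 40.1 ± 0.9 CPM in the control (SD, n = 4, here and below). All control libraries lay between the mimics, and the direct difference was 0.51 ± 0.07 (adjusted p = 1.49e-06). GINS2 (0.31 ± 0.06), the checkpoint and initiation factor TOPBP1 (0.36 ± 0.08), the initiation factor TICRR (0.28 ± 0.08), the helicase RECQL4 (0.64 ± 0.20) and CDC45 (0.17 ± 0.06) were also higher. RECQL4 rested on single libraries and fell short of the threshold without miR-485-3p replicate 2 (adjusted p = 0.0844), miR-100-3p replicate 2 (0.0599) or miR-100-3p replicate 3 (0.0662). CDC45 (adjusted p = 0.0465) kept its call without miR-100-3p replicate 2 or miR-485-3p replicate 5. With 1 of the other 6 left out its adjusted p ran from 0.0746 to 0.164. With every library kept, CDC45 was not called by DESeq2 (adjusted p = 0.0584). In edgeR it was not called with median-of-ratios scaling (0.0826), without a filter (0.235) or at a mean CPM of at least 5 (0.0592). GINS1 (-0.16 ± 0.07), GINS4 (-0.06 ± 0.09), MCM10 (-0.14 ± 0.08), CDC7 (-0.07 ± 0.11) and DBF4 (0.16 ± 0.11) were not called.

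Among polymerases and primase 5 of 9 genes were higher, with a median of 0.32. POLD3, an accessory subunit of polymerase delta, had 87.1, 70.7, 92.7 and 81.4 CPM under miR-485-3p, 52.7, 51.0, 55.5 and 50.5 CPM under miR-100-3p and 56.8 ± 2.9 CPM in the control. Its difference of 0.67 ± 0.07 (adjusted p = 2e-08) came with a rise of 0.55 over the control under miR-485-3p. POLD2, another subunit of polymerase delta, differed by 0.54 ± 0.11, POLE2, of polymerase epsilon, by 0.53 ± 0.07, and POLA1, the catalytic subunit of polymerase alpha, by 0.37 ± 0.10. The primase subunit PRIM2 (0.28 ± 0.10) was called with all libraries and lost the call without 5 of the 8 in turn, down to 0.15 (adjusted p = 0.304) without miR-485-3p replicate 3. The catalytic subunits POLD1 (0.32 ± 0.21) and POLE (0.07 ± 0.06), as well as POLA2 (0.11 ± 0.07) and PRIM1 (0.13 ± 0.10), were not called.

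At the clamp and the fork 8 of 17 genes were higher. PCNA, the sliding clamp, had 308, 274, 351 and 278 CPM under miR-485-3p, 222, 209.8, 217 and 205 CPM under miR-100-3p and 258 ± 16 CPM in the control, a direct difference of 0.50 ± 0.07 (adjusted p = 4.56e-06). It rose by 0.23 over the control under miR-485-3p and fell by 0.27 under miR-100-3p. The single-strand binding subunit RPA2 differed by 0.65 ± 0.06 and RPA1 by 0.27 ± 0.06. LIG1, the ligase that seals Okazaki fragments, had 163, 182, 159.5 and 152 CPM under miR-485-3p, 113, 115, 105 and 119 CPM under miR-100-3p and 145 ± 3.5 CPM in the control, a difference of 0.54 ± 0.07 (adjusted p = 5.78e-07). The flap endonuclease FEN1 (0.32 ± 0.07), the clamp loader subunits RFC2 (0.36 ± 0.07) and RFC4 (0.29 ± 0.07) and the fork protection factor TIPIN (0.51 ± 0.10) were higher too. The 9 that were not called ran from -0.18 ± 0.08 for RFC3 to 0.30 ± 0.15 for RPA3.

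Chromatin assembly held the one member that was lower under miR-485-3p. CHAF1A, the large subunit of the histone chaperone CAF-1, had 98.2, 110.2, 82.5 and 104 CPM under miR-485-3p, 139, 140.2, 132 and 139 CPM under miR-100-3p and 149.7 ± 5.3 CPM in the control. Its direct difference was -0.48 ± 0.07 (adjusted p = 5.4e-06), and it fell by 0.60 against the control under miR-485-3p. CHAF1B, its partner subunit, went the other way (0.24 ± 0.06), as did the chaperone ASF1B (0.46 ± 0.12). DNMT1, which copies DNA methylation, differed by 0.16 ± 0.06 and lost the call without any 1 of 5 libraries. NASP (0.03 ± 0.07) and UHRF1 (0.18 ± 0.07) were not called.

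CHAF1A has no site for either mimic in its 3′ UTR but 2 heptamers for miR-485-3p in its coding sequence. They lie at chr19:4433286-4433292 and chr19:4442311-4442317 (GRCh38, plus strand), printed here with the heptamer in capitals because they belong to the single member that went down.
CHAF1A, coding base 2420: ggctcatttccgagaactcagTGTATGAga
CHAF1A, coding base 2740: gaggaagaggaggagggcgacTGTATGAtc
Such a coding heptamer is present in 10.39% of the tested genes with a UTR, and 2 or more in 1.174%. In the DNA replication list 13 of 66 genes have at least 1 and 4 have 2. The other 3 with 2 were CHAF1B, which was higher, and GINS1 and DCK, which were not called in the direct comparison. Against the control GINS1 fell by 0.26 under miR-485-3p (adjusted p = 0.0113), and DCK was not called. Among 3′ UTRs, 6 of 66 hold a miR-485-3p heptamer and 3 a miR-100-3p heptamer, against 14.16% and 10.4% of all. POLD3 and DNMT1 hold a miR-485-3p site in the UTR and were higher under miR-485-3p. CDC6 and TIPIN hold a miR-100-3p site and differed from the control by -0.03 and -0.02 under miR-100-3p, neither called.

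**Figure D2:**
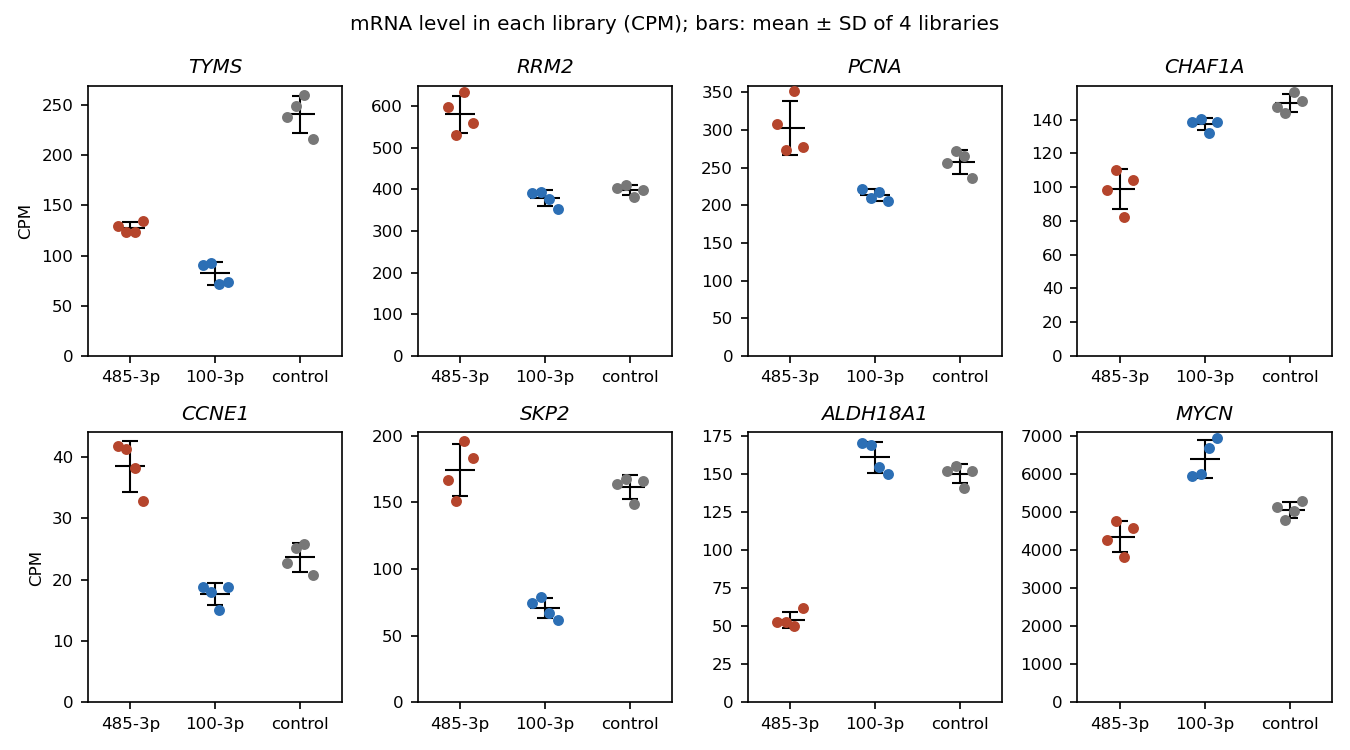
Level in CPM of 8 genes in each library under miR-485-3p, under miR-100-3p and in the scrambled control, with mean and SD of 4 libraries as bars and every axis from 0. For TYMS both mimics lie below the control, for RRM2 miR-485-3p stands above both other groups, and for SKP2 miR-100-3p stands below both.

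Deoxynucleotide supply had the largest median of the roles, 0.52, with 6 of 8 genes higher. TYMS is among these 6, although it was lower than the control under both mimics. RRM2, the regulated subunit of ribonucleotide reductase, had 597, 531, 634 and 558 CPM under miR-485-3p, 390.1, 394, 377 and 352 CPM under miR-100-3p and 398 ± 13 CPM in the control. The difference of 0.62 ± 0.06 (adjusted p = 3.41e-08) lay on the miR-485-3p side, which rose by 0.54, while miR-100-3p differed from the control by -0.08 (adjusted p = 0.581). Its partner RRM1 differed by 0.30 ± 0.06. DUT, which removes dUTP, differed by 0.68 ± 0.10 and fell by 0.41 under miR-100-3p. The thymidine kinase TK1 (0.74 ± 0.20) and the thymidylate kinase DTYMK (0.43 ± 0.14) were called with wide errors. Both were called no longer, at 0.40 (adjusted p = 0.13) and 0.21 (0.322), when miR-485-3p replicate 2 and miR-100-3p replicate 3, the libraries of most extreme GC slope, were left out together. DTYMK also lost its call without miR-485-3p replicate 2 or 3 or miR-100-3p replicate 2 or 3 alone. DCK (-0.13 ± 0.12), a kinase of the deoxynucleoside salvage pathway, was not called.

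TYMS was lower than the control under both mimics and lower under miR-100-3p than under miR-485-3p. Its level was 129, 124, 123 and 135 CPM in the miR-485-3p libraries, 91.0, 92.3, 72.0 and 73.3 CPM in the miR-100-3p libraries and 241 ± 18 CPM in the control. The 3 groups did not overlap. TYMS fell by 0.92 on the log2 scale against the control under miR-485-3p (adjusted p = 4.45e-10) and by 1.55 under miR-100-3p (adjusted p = 8.47e-14), and the direct difference was 0.64 ± 0.07 (adjusted p = 2.01e-07). With any 1 of the 8 libraries left out that difference stayed between 0.58 and 0.70. None of the 3 coding TYMS transcripts holds the heptamer of either seed, or the hexamer for bases 2 to 7. The gene overlaps ENOSF1 on the opposite strand, which was looked up after the values were seen and differed by -0.06 ± 0.11 (adjusted p = 0.746). Whether counting used strand is not stated, so reads of the overlap cannot be assigned with certainty.

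The wider thymidylate and folate list, which shares TYMS, TK1, DTYMK and DUT, among others, with the replication list, had 8 of 17 genes higher, with a median of 0.28. SHMT2, the mitochondrial serine hydroxymethyltransferase that feeds carbon into the folate cycle, had 169, 174, 150.3 and 134 CPM under miR-485-3p, 110.4, 90.6, 70.7 and 97.8 CPM under miR-100-3p and 116 ± 5.7 CPM in the control. Its difference was 0.76 ± 0.10 (adjusted p = 1.86e-06). The cytosolic enzyme SHMT1 differed by 0.44 ± 0.08, and MTHFD1 and the folate hydrolase GGH were also higher. MTHFD2, the mitochondrial dehydrogenase of the same cycle, was not called (0.11 ± 0.06).

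Control of the G1/S transition moved with replication. Of 28 genes tested 15 were higher and 3 lower, with a median of 0.42. SKP2, the F-box protein that marks the cyclin-dependent kinase inhibitor p27 for destruction, had 167, 151, 196 and 183 CPM under miR-485-3p, 74.5, 79.4, 67.1 and 62.1 CPM under miR-100-3p and 162 ± 8.7 CPM in the control. The direct difference of 1.30 ± 0.09 (adjusted p = 1.49e-11) lay on the miR-100-3p side, a fall of 1.19, against 0.11 under miR-485-3p (adjusted p = 0.402). The SKP2 transcript with the longest 3′ UTR carries the miR-100-3p site printed above, but some shorter coding SKP2 transcripts do not. CDKN1B, which encodes p27, was lower under miR-485-3p in the direct comparison (-0.47 ± 0.09) and lower there than in the control by 0.64. CCNE1, cyclin E1, had 41.7, 41.3, 38.2 and 32.8 CPM under miR-485-3p, 18.8, 18, 15.0 and 18.9 CPM under miR-100-3p and 23.6 ± 2.3 CPM in the control. All control libraries lay between the mimics, and the difference was 1.12 ± 0.10 (adjusted p = 3.65e-09).

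E2F factors split by member. E2F1 (0.85 ± 0.15), E2F2 (0.65 ± 0.09), E2F5 (0.77 ± 0.10), E2F7 (0.59 ± 0.10), E2F8 and the dimerization partner TFDP1 (0.69 ± 0.06) were higher under miR-485-3p. E2F3 (-0.37 ± 0.08) and TFDP2 (-0.51 ± 0.11) were lower and each holds a miR-485-3p heptamer in its 3′ UTR, E2F3 also one for miR-100-3p. E2F4 (0.04 ± 0.13) and E2F6 (-0.20 ± 0.09) were not called. The phosphatase CDC25A, which activates CDK2, differed by 0.61 ± 0.07, and cyclins D1 and D3 were higher (CCND1 0.31 ± 0.06, CCND3 0.75 ± 0.14). CCNE2 (-0.20 ± 0.11), CCNA2 (0.13 ± 0.09), CDK2 (0.06 ± 0.06) and CDK6 (-0.19 ± 0.14) did not pass the test. The inhibitors CDKN2C (0.62 ± 0.09) and CDKN2D (0.74 ± 0.19) were higher too, so calls in the upward direction were found among activators and inhibitors alike.

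Genes with a seed site in the 3′ UTR leaned away from the mimic that matches them. Of 12603 tested genes with a UTR of at least 50 bases, 1435 held a miR-485-3p heptamer alone, and 34.15% of these were lower under miR-485-3p and 7.526% higher, with a median log2 difference of -0.17. A miR-100-3p heptamer alone was held by 962 genes, of which 25.78% were higher under miR-485-3p and 10.19% lower, with a median of 0.12. Among 9857 genes with neither heptamer 17.46% were higher and 11.36% lower, with a median of 0.06. The 349 genes with both heptamers had a median of -0.11 (31.23% lower, 13.47% higher). UTRs with a site are longer, a median of 2856 bases with miR-485-3p sites and 2849 with miR-100-3p sites, against 1116 with neither. The part of UTR length was not tested.

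**Figure D3:**
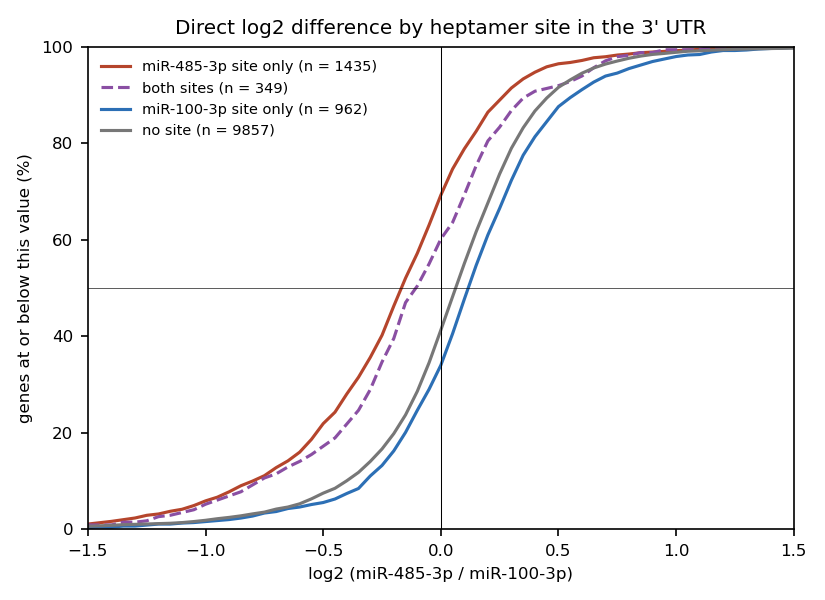
Cumulative share of genes (%) at or below each direct log2 difference, for genes with a miR-485-3p heptamer only, both heptamers, a miR-100-3p heptamer only or neither in the 3′ UTR. The miR-485-3p curve lies left of the curve for no site (medians -0.17 and 0.06), and the miR-100-3p curve lies right of it (0.12) by less.

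The share grew with stronger sites for miR-485-3p. It was 45.52% lower among 736 genes with a heptamer followed by A and 47.41% lower among 232 genes with 2 or more heptamers. The 736 hold no miR-100-3p heptamer followed by A but may hold other miR-100-3p heptamers, which the 232 do not. For miR-100-3p, 27.31% were higher among 227 genes with a heptamer followed by A. The share was 25.27% among 91 genes with 2 or more heptamers and 25.83% among 871 with 1. Likewise the 227 may hold miR-485-3p heptamers not followed by A, which the 91 and the 871 do not. Against the control under miR-100-3p, 16.74% of the 227 genes were lower, 7.692% of the 91 and 9.644% of the 871. That share was 2.678% among genes with neither heptamer. Coding heptamers were examined in genes with no UTR site for either mimic. Of 982 such genes with at least 1 coding miR-485-3p heptamer, 21.79% were lower, and of 115 with 2 or more, 33.91%, against 10.21% of 8875 with none. For miR-100-3p, 21.33% of 933 genes with a coding heptamer were higher and 17.06% of 8924 without one.

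The 6 genes with the smallest p among those with a miR-485-3p site alone were ALDH18A1, RHOQ, MYCBP, UBE2Q1, SFXN1 and NRAS. ALDH18A1, the first enzyme of proline synthesis from glutamate, had 53, 52.7, 50.03 and 62.1 CPM under miR-485-3p, 171, 169, 155 and 150.3 CPM under miR-100-3p and 150.3 ± 6.2 CPM in the control. Its difference was -1.57 ± 0.06 (adjusted p = 1.26e-15), all on the miR-485-3p side. NRAS, the RAS family GTPase that is mutated in some neuroblastomas, had 46.9, 43.5, 41.3 and 72.3 CPM under miR-485-3p, 216, 236, 233 and 201 CPM under miR-100-3p and 226 ± 14 CPM in the control, a difference of -2.12 ± 0.13 (adjusted p = 2.22e-12). RHOQ, a small GTPase, and MYCBP, a partner of MYC, differed by -2.21 ± 0.11 and -2.27 ± 0.12. The ubiquitin-conjugating enzyme UBE2Q1 (-1.52 ± 0.08) and the mitochondrial serine carrier SFXN1 (-1.26 ± 0.07) complete the set, and each of the 6 differed from the control under miR-100-3p by at most 0.24, uncalled.

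On the miR-100-3p side the vesicle SNARE VAMP3 had 92.7, 88.0, 99.1 and 79.3 CPM under miR-485-3p, 25.7, 27.7, 23.7 and 23.4 CPM under miR-100-3p and 74.2 ± 5.4 CPM in the control. Its difference of 1.84 ± 0.08 (adjusted p = 1.56e-15) combined a fall of 1.57 under miR-100-3p with a rise of 0.28 under miR-485-3p. CNRIP1, which binds a cannabinoid receptor, differed by 1.36 ± 0.09 and the S6 kinase RPS6KA2 by 1.44 ± 0.10. Both had fallen by about as much against the control under miR-100-3p (-1.48 and -1.52) and were uncalled under miR-485-3p. LAYN, a hyaluronan receptor (1.12 ± 0.09), and the RNA-binding protein LSM14B (0.94 ± 0.08) were called against the control in both directions, higher under miR-485-3p and lower under miR-100-3p.

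The largest differences were not all in genes with a seed site. Among the 12 largest rises, ACTL8, an actin-like gene, had 27.4, 25.3, 27.5 and 20.0 CPM under miR-485-3p, 6.53, 4.21, 3.70 and 6.17 CPM under miR-100-3p and 4.76 ± 0.45 CPM in the control (2.26 ± 0.18, adjusted p = 2.59e-10). The rise was on the miR-485-3p side alone, as for the pseudogene ADCY10P1 (1.37 ± 0.14). DCP2, the enzyme that removes the mRNA cap, had 116, 112, 186 and 164 CPM under miR-485-3p, 57.1, 58.4, 47.5 and 43.8 CPM under miR-100-3p and 88.2 ± 6.8 CPM in the control (1.49 ± 0.15), with calls in opposite directions against the control. APCDD1, an inhibitor of WNT signalling (1.63 ± 0.18), and TMEM250 (1.48 ± 0.19) showed the same pattern. SLC18A3, the vesicular acetylcholine transporter (1.78 ± 0.37), and the WNT deacylase NOTUM (1.33 ± 0.31) were called in the direct comparison and in neither comparison with the control. RHBG, an ammonium transporter (1.36 ± 0.15), fell under miR-100-3p alone, and LRRC32, which docks latent TGF-beta (1.34 ± 0.17), rose under miR-485-3p alone.

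**Figure D4:**
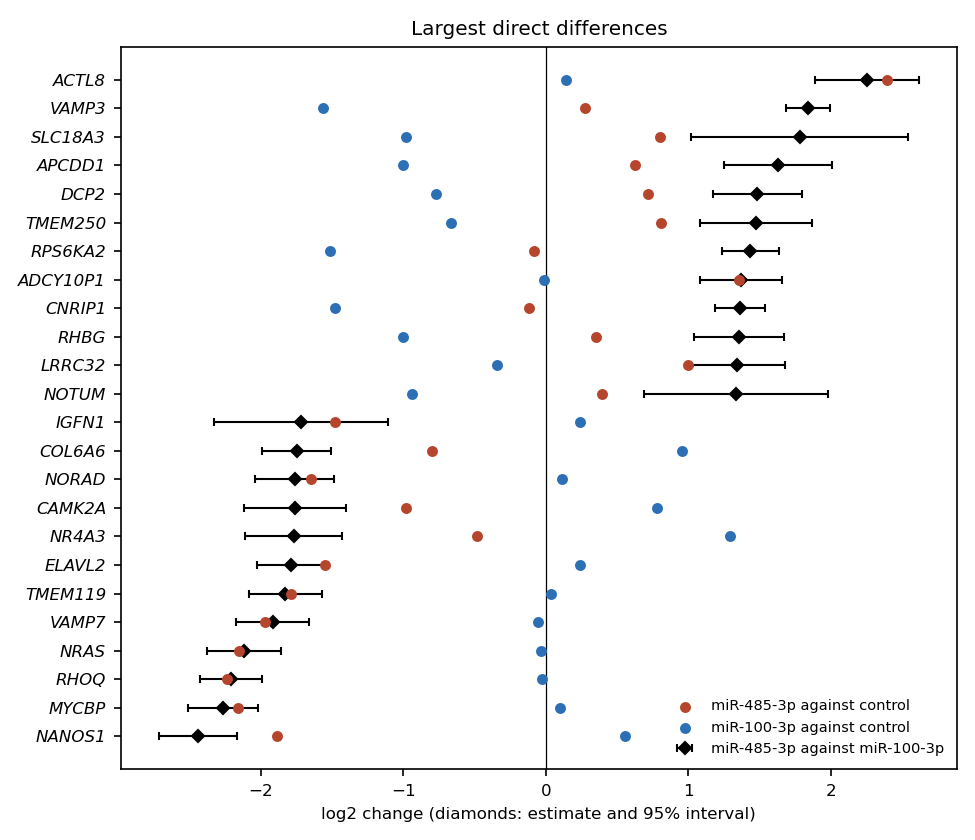
Direct log2 difference with its 95% interval (black diamonds) for the 12 largest rises and 12 largest falls, beside the change against the control under miR-485-3p (red) and miR-100-3p (blue). For MYCBP, RHOQ, NRAS and VAMP7 the blue points lie near 0 and the red points at the diamonds, whereas for VAMP3, RPS6KA2 and CNRIP1 the blue points carry the difference.

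Among the 12 largest falls NANOS1, an RNA-binding regulator of translation known from germ cells, had 3.13, 2.83, 2.85 and 4.15 CPM under miR-485-3p, 16.0, 15.4, 21.1 and 18.1 CPM under miR-100-3p and 11.95 ± 1.35 CPM in the control. Its difference of -2.45 ± 0.13 (adjusted p = 3.08e-13) combined a fall of 1.89 under miR-485-3p with a rise of 0.56 under miR-100-3p, and neither its UTR nor its coding sequence holds the heptamer of either mimic. COL6A6, a collagen VI chain, had 86.8, 65.5, 83.8 and 109 CPM under miR-485-3p, 261, 290.2, 332 and 277 CPM under miR-100-3p and 149.9 ± 4.4 CPM in the control (-1.75 ± 0.12), again with opposite calls. CAMK2A, a calcium-dependent kinase of neurons (-1.76 ± 0.18), and the nuclear receptor NR4A3 (-1.77 ± 0.17) did the same. ELAVL2, a neuronal RNA-binding protein (-1.79 ± 0.11), TMEM119 (-1.83 ± 0.12), the long noncoding RNA NORAD (-1.76 ± 0.13) and IGFN1 (-1.72 ± 0.30) fell under miR-485-3p and were uncalled under miR-100-3p. The UTR of ELAVL2 holds 3 miR-485-3p heptamers and that of TMEM119 holds 1, whereas IGFN1 has no such site. NORAD has no UTR and was not searched. VAMP7, a vesicle SNARE (-1.92 ± 0.12), lies in the pseudoautosomal region, so reads may be split with its Y copy, and its coding sequence holds 1 miR-485-3p heptamer, at chrX:155939746-155939752.
VAMP7, coding base 547: agaaatcttgctcgagccatgTGTATGAag
This site is shown because the UTR of the gene has none.

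Proline and arginine synthesis was the list with the highest share of calls. All 10 tested genes were called, 8 higher and 2 lower, with a median of 0.58. ASS1 and ASL, the enzymes that make arginine from citrulline, differed by 0.60 ± 0.06 and 0.86 ± 0.12, and the mitochondrial arginase ARG2 by 0.72 ± 0.10. ASS1 had 173, 168, 167 and 173 CPM under miR-485-3p, 122, 109, 110.4 and 107 CPM under miR-100-3p and 171 ± 11 CPM in the control, so its difference was a fall of 0.61 under miR-100-3p. The pyrroline reductases PYCR1 and PYCR3, downstream of ALDH18A1, were higher under miR-485-3p although ALDH18A1 was lower. Without miR-100-3p replicate 3 the count higher was 5, and without miR-100-3p replicate 4 the count lower was 1.

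Mitosis had 12 of 32 genes higher and 3 lower, with a median of 0.20. CDK1, the mitotic kinase, had 121, 115, 169.7 and 147 CPM under miR-485-3p, 96.3, 92.8, 76.6 and 88.3 CPM under miR-100-3p and 109.6 ± 5.9 CPM in the control (0.64 ± 0.11, adjusted p = 3.47e-05). The spindle protein PRC1 (0.61 ± 0.06) and the kinesin KIF2C (0.39 ± 0.05) were higher. AURKA, the mitotic kinase that stabilizes MYCN protein, went the other way with 70.8, 66.3, 79.3 and 85.3 CPM under miR-485-3p, 107, 118, 120.2 and 122 CPM under miR-100-3p and 117 ± 6.0 CPM in the control. Its difference of -0.63 ± 0.07 (adjusted p = 2.62e-07) was a fall under miR-485-3p, and under miR-100-3p it differed from the control by 0.00 (adjusted p = 0.992). KIF23 and KIF20A were the other 2 lower genes.

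In double-strand break repair 8 of 28 genes were higher and 5 lower, with a median of 0.17. RAD51C (0.57 ± 0.07), FANCA (0.53 ± 0.08), FANCI (0.49 ± 0.08) and the nuclease MRE11 (0.71 ± 0.11) were higher, whereas RAD50, a partner of MRE11 in the same complex, was lower, as were RAD54L, RBBP8, XRCC4 and LIG4. Without miR-485-3p replicate 3 the count higher was 5. Of 19 p53 targets 9 were higher and 2 lower, with a median of 0.30. DDB2 (0.84 ± 0.11) and XPC (0.54 ± 0.08), which recognize damaged DNA, and the death receptor TNFRSF10B (0.62 ± 0.10) were higher. CDKN1A, the inhibitor p21, was not called (0.53 ± 0.23). ZMAT3, an RNA-binding target of p53 (-0.88 ± 0.11), and TP53INP1 were lower. That count of 2 was 1 without miR-485-3p replicate 2, miR-100-3p replicate 1 or miR-100-3p replicate 2 and 4 without miR-485-3p replicate 3.

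Cholesterol synthesis had 9 of 23 genes higher and 2 lower, with a median of 0.24. DHCR7, the last reductase of the pathway, differed by 0.63 ± 0.12 and FDPS by 0.28 ± 0.06, and MVK, PMVK and MVD were higher. The 2 lower genes, INSIG1 (-0.98 ± 0.15), which retains the sterol sensor in the endoplasmic reticulum, and HMGCS1 (-0.61 ± 0.10), the synthase at the start of the pathway, had risen against the control under miR-100-3p by 0.65 and 0.47 and were uncalled under miR-485-3p. Of 25 listed small GTPases 9 were lower, with RHOA (-0.71 ± 0.07) beside NRAS and RHOQ, and 5 were higher, among them RALA (0.65 ± 0.07). That count of 5 was 3 without miR-485-3p replicate 3, miR-100-3p replicate 1 or miR-100-3p replicate 3.

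MYCN itself differed between the mimics. It had 4257, 4755, 3828 and 4571 CPM under miR-485-3p, 5929, 5993, 6675 and 6927 CPM under miR-100-3p and 5054 ± 206 CPM in the control. The groups of the mimics did not overlap, and the difference was -0.55 ± 0.08 (adjusted p = 1.03e-05). Against the control MYCN rose by 0.34 under miR-100-3p (adjusted p = 0.0123), and under miR-485-3p it differed by -0.22 (adjusted p = 0.061). Of the 10 neuroblastoma markers 4 were lower, namely MYCN, HAND2 (-0.62 ± 0.12), CHGA (-0.46 ± 0.11) and ISL1 (-0.35 ± 0.11). ISL1 lost its call without miR-100-3p replicate 3 (adjusted p = 0.0633) or miR-100-3p replicate 4 (0.0613). In the longer adrenergic list 4 of 25 genes were higher and 6 lower (16% and 24%, against 14.9% and 13.7% of all genes). TFAP2B, a transcription factor, was among the lower (-1.06 ± 0.14). The count of 4 was 2 without miR-100-3p replicate 2 or miR-485-3p replicate 1.

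Mesenchymal genes were lower in 7 of 12 tested, with a median of -0.44. ANXA2, a calcium-dependent membrane protein (-1.04 ± 0.11), and SOX9, a factor of neural crest and cartilage (-1.20 ± 0.15), were well measured. PRRX1 was at 0.00, 0.00, 0.17 and 0.15 CPM under miR-485-3p and 0.52, 0.76, 1.67 and 1.08 CPM under miR-100-3p, a level of few reads. Neuronal differentiation genes were lower in 9 of 29 and higher in 5, with a median of -0.11. GAP43, a growth cone protein (-0.88 ± 0.09), and the neurofilament NEFH (-0.56 ± 0.09) were lower, and the synaptic SNAP25 (0.46 ± 0.07) was higher. GAP43 fell against the control under miR-485-3p by 0.46 and rose under miR-100-3p by 0.42.

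Of 73 ribosomal protein genes RPL26 was higher and RPS27A, RPS26 and RPL11 were lower (1.37% and 4.11%), with a median of -0.04. The family has many near-identical pseudogenes, and each of these calls was lost without at least 1 library. Of 50 genes of the respiratory chain 8 were higher and 4 lower (16% and 8%, against 14.9% and 13.7% of all genes), with a median of 0.09. The complex I subunits NDUFB10 (-1.14 ± 0.13) and NDUFB9 (-0.61 ± 0.08) were the strongest falls. The count of 8 was 5 without miR-485-3p replicate 3 or miR-100-3p replicate 2 and 4 without miR-100-3p replicate 3. Of 12 interferon-induced genes, which respond to foreign RNA, 2 were higher (16.67%, against 14.9% of all genes). These were OAS3 (1.17 ± 0.16) and OAS1 (0.93 ± 0.18), both lower than the control under miR-100-3p and uncalled under miR-485-3p. In amino acid and endoplasmic reticulum stress 2 of 24 genes were higher and 7 lower (8.333% and 29.17%). The count of 7 was 4 without miR-100-3p replicate 2. SLC7A11, the cystine importer, had 6.06, 5.20, 7.38 and 7.83 CPM under miR-485-3p, 19.5, 22.1, 19.5 and 19.0 CPM under miR-100-3p and 11.1 ± 2.3 CPM in the control (-1.59 ± 0.15, adjusted p = 1.22e-08).

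**Figure D5:**
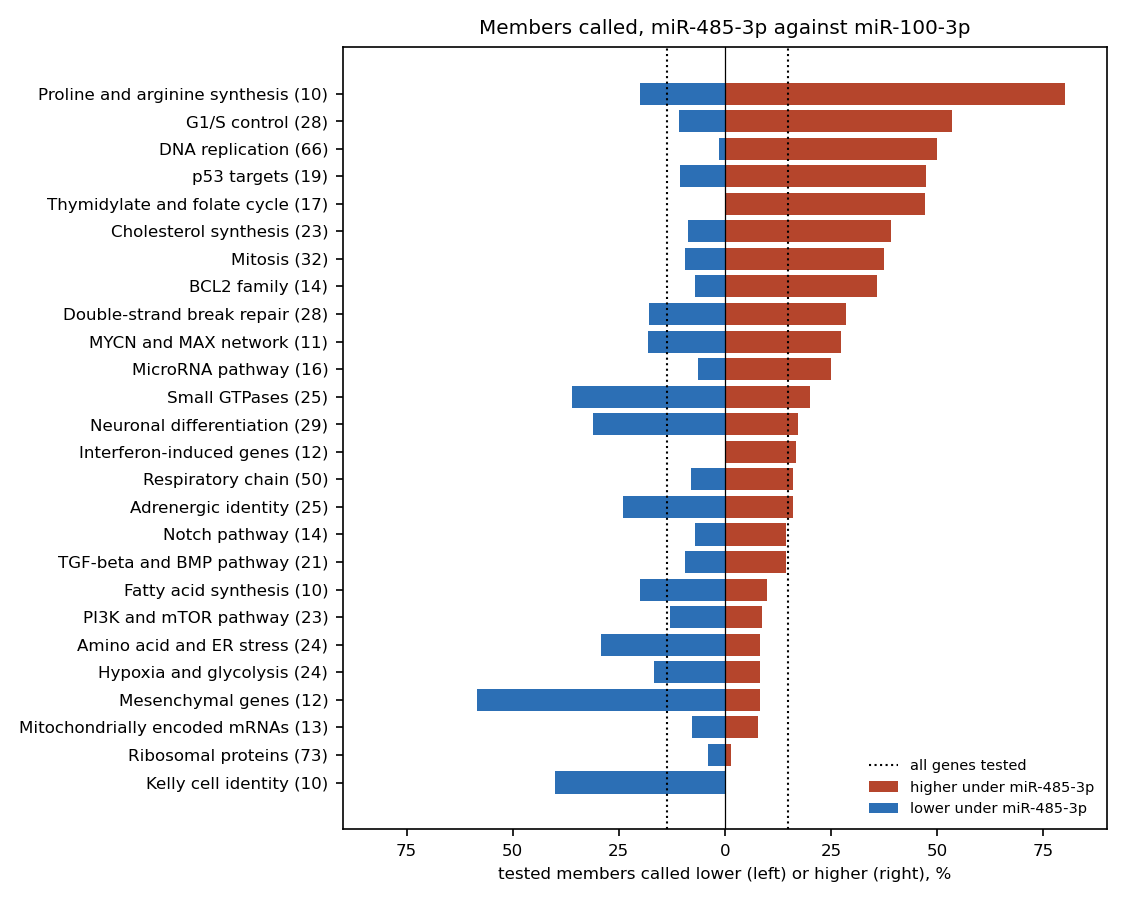
Share (%) of the tested members of each list called higher (right, red) or lower (left, blue) under miR-485-3p than under miR-100-3p, with the number tested in brackets and dotted lines at the shares over all genes (14.9% and 13.7%). Proline and arginine synthesis, G1/S control and DNA replication have the longest bars to the right, and mesenchymal genes the longest to the left.

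In hypoxia and glycolysis 2 of 24 genes were higher under miR-485-3p and 4 lower, with a median of 0.08. The higher genes were PFKP (0.87 ± 0.09) and HK2 (0.78 ± 0.10), which catalyse early steps of glycolysis, and the lower genes were PFKFB3 (-0.55 ± 0.18), BNIP3L (-0.45 ± 0.12), ALDOC (-0.36 ± 0.12) and the hypoxia factor HIF1A (-0.43 ± 0.12). Without miR-100-3p replicate 1 the count lower was 2, and HIF1A lost its call without miR-100-3p replicate 3 (adjusted p = 0.0667). In the BCL2 family 5 of 14 genes were higher and 1 lower (35.71% and 7.143%). HRK, a BH3-only killer, was lower (-1.20 ± 0.15), and the survival gene BCL2 (0.56 ± 0.13) and the BH3-only gene BCL2L11 (0.49 ± 0.10) were higher. In the microRNA pathway itself 4 of 16 genes were higher and 1 lower (25% and 6.25%). XPO5, the exporter of precursors (0.48 ± 0.06), and TNRC6C (0.85 ± 0.10), a scaffold of the silencing complex, were higher and TNRC6A (-0.49 ± 0.07) was lower. Of 23 PI3K and mTOR genes 2 were higher, with EIF4EBP2 (0.61 ± 0.08), and 3 lower, with RPS6KB1 (-0.73 ± 0.10), shares of 8.696% and 13.04%. The TGF-beta list had 3 of 21 higher and 2 lower, with ID2 (-0.62 ± 0.09), shares of 14.29% and 9.524%. The Notch list had 2 of 14 higher, with HEY1 (0.42 ± 0.08), and 1 lower, shares of 14.29% and 7.143%. Among all genes the shares were 14.9% and 13.7%. The fatty acid list had 1 of 10 higher and 2 lower (10% and 20%), with the desaturase FADS1 among the lower (-0.32 ± 0.05). In each list from the BCL2 family to the fatty acids a count changed when certain single libraries were left out. Mitochondrially encoded mRNAs had a median of -0.32, with 1 of 13 estimates above 0. MT-ND6 was called higher (1.22 ± 0.36) and MT-ND1 lower (-0.52 ± 0.18), and neither was called without miR-100-3p replicate 3, the library with the largest mitochondrial share. MT-ND1 was not called without miR-485-3p replicate 3 either. The count lower was 5 without miR-100-3p replicate 1, 3 without miR-100-3p replicate 4 or miR-485-3p replicate 2 and 2 without miR-485-3p replicate 1.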

How the data were processed

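RNA sequencing of Kelly cells was analysed from the deposited table of expected counts per gene. Reads were aligned to hg19 with STAR, per the submitters' processing notes. Libraries were stranded mRNA, per the labels' protocols. The counting tool, annotation, strand setting and the filtering are not given in the sources used here. Of the authors' deposited expected counts, 10.2% are not whole, and they were rounded. The table has 30887 rows, 19 of them Y copies of pseudoautosomal genes, which were left out. No column was without a sample.

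edgeR 4.0.16 (filterByExpr, TMM, quasi-likelihood test) was fitted to all 28 libraries in 7 groups, and 15047 genes were tested, two-sided, with Benjamini-Hochberg adjustment. Residual degrees of freedom were 21, and the biological coefficient of variation was 12.2%. CPM use the effective library size. The fit was also run on simulated counts, which were drawn independently for each gene and carried no GC slope. For genes with many reads the spread between libraries, more than counting error, sets the precision.

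Seed heptamers (RefSeq, bases 2 to 8) were searched on the sense strand in the transcript with the longest 3′ UTR of each gene (GENCODE v29, GRCh38, not the authors' hg19). GC content came from the longest transcript. Gene names follow current identifiers.

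Named genes are the 12 with the highest and the 12 with the lowest direct difference (called, groups not overlapping, log2 CPM averaging 2 or more), the 6 smallest p-values per seed, all called replication genes, TYMS, MYCN and up to 4 genes per list by p. Not every gene so chosen is described, a few items are not reported here, and members outside the rule are named where a list is described. ENOSF1 was chosen after its values were seen. The groups, genes and lists were chosen with earlier results of these data known. The alternatives were DESeq2 1.42.0, limma 3.58.1 (voom), 2 other scalings, 2 other filters, a fit of 8 libraries, a replicate block, the GC slope as a covariate, shorter and longer seed matches and leaving out libraries.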

Additional observations from a re-analysis of the deposited data

Results flagged for a closer look

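In 14 of 462 groups of 4 libraries examined (3.03%), 1 library stood apart from the other 3 beyond the critical value of Dixon's test, and chance flags about 1 in 20. Under miR-485-3p, replicate 3 stood apart for PRIM2 (48.58 CPM, the others 37.06 to 38.15), DNMT1 (310.7, the others 328.5 to 330.5), INSIG1 (68.98, the others 43.75 to 47.65) and RPL11 (1015, the others 1141 to 1154). Without it the call of PRIM2 in the direct comparison was lost (adjusted p = 0.304). Replicate 2 stood apart for LRRC32 (13.42 CPM, the others 9.82 to 10.22). Under miR-100-3p, replicate 2 stood apart for SLC7A11 (22.12 CPM, the others 19.01 to 19.47).

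In the scrambled control, replicate 1 stood apart for MCM2 (451.6 CPM, the others 492.4 to 498.1) and SCD (803.2, the others 840.6 to 842.9). Replicate 2 stood apart for LRRC32 (5.63 CPM), replicate 4 for INSIG1 (77.56 CPM) and FOSL2 (47.64 CPM), and replicate 5 for NR4A3 (8.091 CPM), TNRC6B (124.5 CPM) and NDUFB10 (47.43 CPM). The control libraries enter the direct differences of these genes only through the shared filter, scaling and estimate of spread.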

How the results depend on the processing

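No named gene changed direction under the alternatives run. The balance of direct calls did: 2237 were higher and 2059 lower, against 2157 and 2203 with DESeq2, 2043 and 2170 with median-of-ratios scaling, 1641 and 1866 without a filter, 1590 and 1846 without both libraries of extreme GC slope (an alternative chosen after seeing the data), 1580 and 1996 leaving out miR-485-3p replicate 3 and 2092 and 2432 leaving out its replicate 5. The median over all genes was -0.006 in the last 3. Fitting only the 8 libraries of a comparison called 2145 genes in the direct comparison (875 higher, 40.8% of the calls, against 52.1% in the fit of 28), 1999 for miR-485-3p and 490 for miR-100-3p against the control, 16 DNA replication genes (15 higher), 114 members of the other lists and 131 genes higher with a miR-100-3p site. With the GC slope as covariate, 5680 genes were called directly, 42 replication genes among them (41 higher), and 4872 and 1768 genes were called against the control under miR-485-3p and miR-100-3p. Without a filter 561 were called under miR-100-3p. With 8mer and hexamer sites 62 and 688 genes with a miR-100-3p site were higher, since these matches are held by fewer and more genes. The cause of the other shifts was not tested.

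With 1 library left out in turn, the direct comparison called 3523 to 4524 genes, miR-485-3p against the control 2239 to 3394 and miR-100-3p 551 to 900. DNA replication had 30 to 34 calls, 29 to 32 of them higher, the other lists 164 to 201, the site groups 419 to 587 (miR-485-3p, lower) and 190 to 260 (miR-100-3p, higher), and TYMS differed by 0.58 to 0.70. Without both libraries of extreme GC slope 27 replication genes were higher. The TYMS call was kept in every alternative run. Of 148 named genes, 112 kept their direct call in every alternative in which they were fitted, since a stricter filter and the 8-library fit dropped a few, and 36 lost it in at least 1.

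Pairing of libraries by replicate number is not stated in the labels, and these correlations cannot settle it. The correlations of deviations between same-numbered libraries of the mimics were -0.02, -0.24 and 0.07 for numbers 1, 2 and 3. With the control they were -0.09, -0.09 and 0.225 for miR-485-3p (numbers 1, 2 and 5). For miR-100-3p they were -0.03, 0.01 and 0.28 (numbers 1, 2 and 4). With a replicate block 4989 genes were called (2576 higher) and 40 replication genes, 36 higher and 4 lower.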
